A study of Mus musculus with 16 samples.

Results

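Hearts of 86-week-old female C57BL/6 mice were compared between WT animals (genotype wt) and animals lacking CAP2 in the whole body (genotype CAP2 -/-), with 3 libraries in each group. The members are the 6 of 16 labelled samples of the series that belong to this experiment, and the values are those of the rows that stand for whole genes, 38087 in all, of which 16297 had enough reads to be tested. RNA came from whole frozen hearts and was made into Ion Total RNA-Seq libraries. The labels name no promoter or Cre for these mice, do not describe how the allele was made and do not state whether the controls were littermates. The remaining samples belong to an experiment with 13-week-old C57BL/6 mice that carried Loxp/Loxp alleles with or without Cre under the heart muscle promoter Myh6, which is used only for values side by side at the end.

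CAP2 is one of the cyclase-associated proteins, which bind actin monomers and help cofilin-family proteins take actin filaments apart and recharge the monomers for the next round of growth. Free actin monomers also hold the co-activator MRTF in the cytoplasm; when they are scarce, MRTF enters the nucleus and joins SRF on a short DNA element termed the CArG box, found near many genes of the contractile and cytoskeletal apparatus. In heart muscle this pair is known for driving actins, tropomyosins and LIM proteins, and in fibroblasts for the contractile myofibroblast state.

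The 6 libraries held 10750175 to 27440478 estimated counts. In the 6 pairs of libraries from one group, the chi-square of the counts ran from 10.66 to 29.07 per gene, so no pair agreed within counting error. The first principal component (30.66% of the variance) put all WT libraries on one side and all CAP2-/- libraries on the other, and the second (23.48%) set WT replicate 1 and CAP2-/- replicate 1 at its opposite ends. CAP2-/- replicate 1 also held the most haemoglobin RNA: summed over 7 erythroid markers it stood at 18520 CPM (counts scaled to a common library total), against 2474 to 7976 CPM in the other libraries. Markers of ventricular muscle were high in all 6 libraries, summing to 115600 to 128500 CPM in WT and 123900 to 133800 CPM in CAP2-/-. Without Actc1, the called one of the 16, the sums were 103200 to 114900 CPM and 93570 to 105500 CPM. A log2 fold change above 0 was seen in 7 of the 16, and the median was -0.09. All CAP2-/- libraries lay below WT for 4 of the 16 and above for 2, beside 8.0% and 7.6% of all genes.

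Loss of CAP2 went with more rises than falls. At a Benjamini-Hochberg adjusted p under 0.05 in edgeR's quasi-likelihood test (termed called from here on), 220 genes differed, or 1.35% of those tested; 137 were higher (0.841%) and 83 lower (0.509%) in CAP2-/-. The rises were also larger: 84 of the 137 were at least 2-fold and 34 at least 4-fold, against 31 and 6 of the 83 falls. Called genes were often abundant, with 55 of the rises and 39 of the falls among the genes at 51.3 CPM or more, the most abundant 20% of those tested. The median log2 fold change over all genes tested was 0.0057, close to 0. The groups did not overlap for 2542 genes (15.6%), 1239 higher (7.6%) and 1303 lower (8.0%); all 220 called genes are among them. Leaving out CAP2-/- replicate 3 gave 126 calls, CAP2-/- replicate 2 gave 137 and WT replicate 3 gave 144, while 77 of the 137 rises and 24 of the 83 falls were called without each library in turn. Genes whose call a single library decided are marked where they are described. The gene lists were chosen with earlier results of these data known, so a called share set beside that of all genes is a description and no test. In RNA from whole hearts, fewer cells of a type and less RNA per cell cannot be told apart. Levels are CPM scaled by TMM factors, and sums over markers are plain CPM. The labels do not say that the 3 libraries of a group came from separate animals; if they did not, p-values measure a spread that may be technical.

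**Figure D1:**
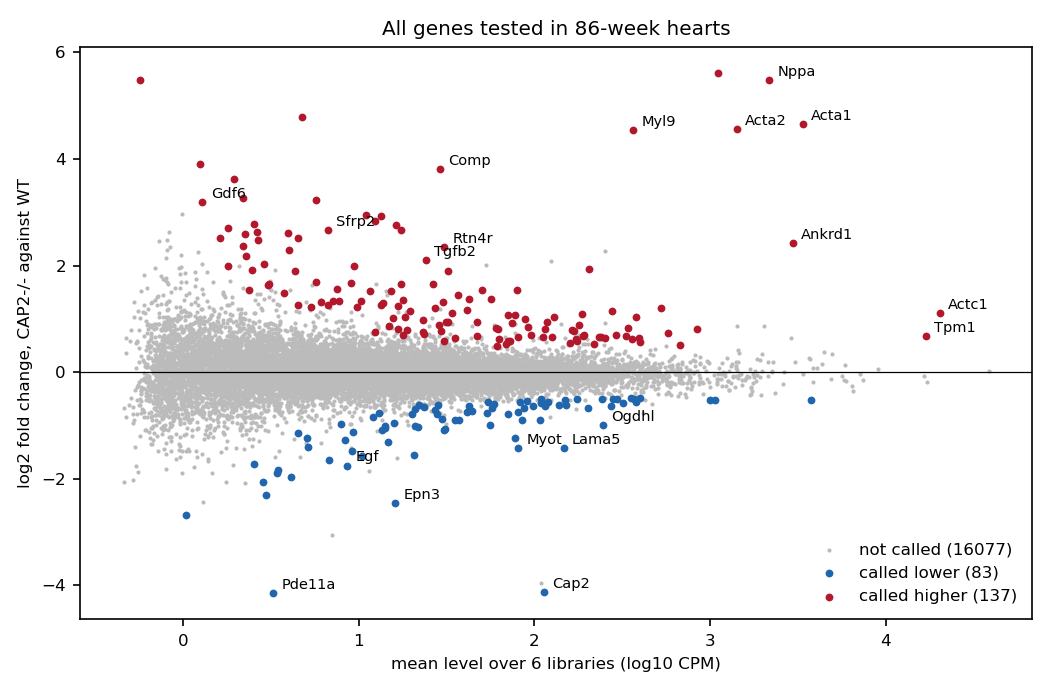
Log2 fold change in CAP2-/- against WT (vertical axis) plotted against the mean level over the 6 libraries (horizontal axis, log10 CPM) for the 16297 genes tested; 137 genes called higher are red, 83 called lower are blue and the others are grey. Acta1, Nppa and Ankrd1 combine a large rise with a high level, and Cap2 and Pde11a lie at the bottom.

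Cap2 (chr13:46501848-46650281 in GRCm38, plus strand) was low in every library labelled CAP2-/-. It stood at 197, 217 and 228 CPM in WT and at 8.34, 16.2 and 12.02 CPM in CAP2-/- (log2 fold change -4.13, SE 0.20, adjusted p = 1.00e-07). The groups were far apart, and the fall is a check of the labels rather than a finding. Its paralog Cap1, which is expressed in most tissues, was at 57.1, 63.3 and 62.6 CPM and 55.6, 69.0 and 68.1 CPM, with overlapping groups (log2 fold change 0.08, SE 0.12, adjusted p = 0.893). Of the other genes that begin within 2 Mb of the start of Cap2 on chromosome 13, 19 were tested. A single one was called, Hsp25-ps1, a pseudogene copy of a small heat shock protein gene, which rose 1.76-fold (log2 fold change 0.81, SE 0.13, adjusted p = 0.00261); reads of its parent gene could have been counted there. The groups did not overlap for 4 of the 19 (21.1%, beside 15.6% of all genes). The 3 besides Hsp25-ps1 were Dtnbp1 (log2 -0.22), Atxn1 (0.19) and Kdm1b (-0.38). The immediate neighbours Rbm24, an RNA-binding splicing factor of heart muscle (log2 0.05, SE 0.12), and Fam8a1 (0.15, SE 0.13) had overlapping groups. Over the whole of chromosome 13 apart from Cap2, 1.54% of 584 genes were called, near the background.

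**Figure D2:**
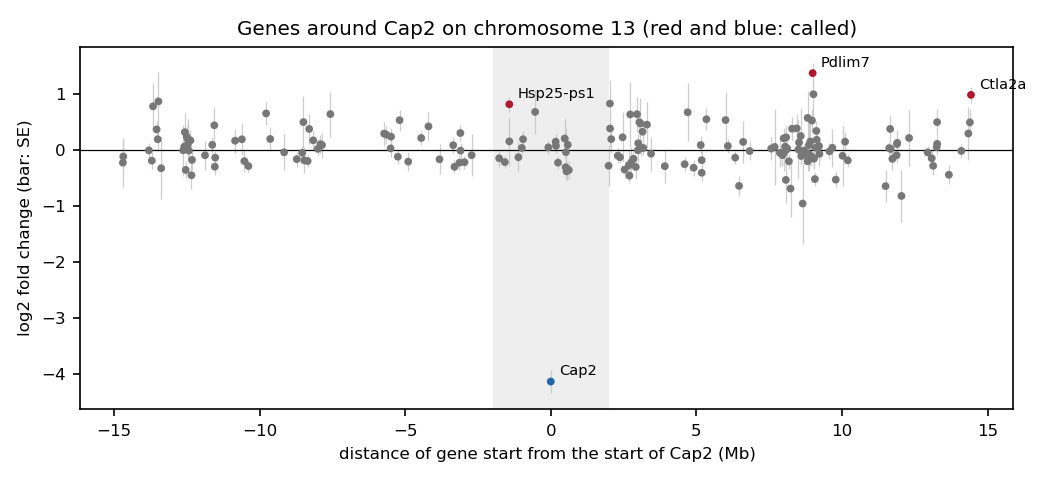
Log2 fold change in CAP2-/- against WT (vertical axis, bars show the SE) of genes on chromosome 13 by the distance of their start from that of Cap2 (horizontal axis, Mb); the window of 2 Mb on either side is shaded and called genes are coloured. Cap2 lies at -4.13, and Hsp25-ps1 is the other called gene in the shaded window.

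Part of the MRTF/SRF list, which holds contractile and cytoskeletal genes, rose. Of its 35 tested members 10 were called higher and 0 lower (28.6%, beside 1.35% of all genes). The median log2 fold change was 0.30, beside 0.0057 over all genes, and 27 of the 35 lay above 0. DNA around the start of 4 of the called members is shown because each holds a CArG box, in the form CC, then 6 letters A or T, then GG, searched on both strands. The sequences run 5′ to 3′ along the gene's strand, from 250 bases before to 50 after the RefSeq start (GRCm38.p6), with the CArG box in capitals.
Acta1: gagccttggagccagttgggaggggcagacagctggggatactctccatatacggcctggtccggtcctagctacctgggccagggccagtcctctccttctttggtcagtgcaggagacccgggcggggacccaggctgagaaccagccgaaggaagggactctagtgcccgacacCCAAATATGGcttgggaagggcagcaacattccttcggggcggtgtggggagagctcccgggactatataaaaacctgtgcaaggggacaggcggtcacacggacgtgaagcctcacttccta
Actc1: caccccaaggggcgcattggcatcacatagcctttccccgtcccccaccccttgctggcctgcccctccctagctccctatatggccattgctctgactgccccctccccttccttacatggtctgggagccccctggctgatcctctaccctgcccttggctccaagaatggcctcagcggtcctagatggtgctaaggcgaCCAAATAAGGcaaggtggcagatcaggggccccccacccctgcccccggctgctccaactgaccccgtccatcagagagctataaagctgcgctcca
Myl9: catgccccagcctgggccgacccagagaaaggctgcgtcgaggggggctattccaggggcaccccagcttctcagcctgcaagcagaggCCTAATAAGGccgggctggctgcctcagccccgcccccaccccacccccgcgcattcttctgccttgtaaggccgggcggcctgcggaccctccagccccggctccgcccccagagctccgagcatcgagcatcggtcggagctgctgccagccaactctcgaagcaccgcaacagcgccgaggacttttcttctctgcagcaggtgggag
Cnn2: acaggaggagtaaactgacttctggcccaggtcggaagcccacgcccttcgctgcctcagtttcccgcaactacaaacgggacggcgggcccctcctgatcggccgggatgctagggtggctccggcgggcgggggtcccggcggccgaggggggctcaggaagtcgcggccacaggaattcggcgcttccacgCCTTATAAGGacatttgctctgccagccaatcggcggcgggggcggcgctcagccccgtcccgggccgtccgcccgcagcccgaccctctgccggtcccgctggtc
The Acta1 window is chr8:123894726-123895025 (minus strand) with its box at -73 from the start, and that of Actc1 is chr2:114052826-114053125 (minus strand) with its box at -47. The Myl9 window is chr2:156775214-156775513 (plus strand) with its box at -161, and that of Cnn2 is chr10:79988350-79988649 (plus strand) with its box at -56. Windows of this length were found for 10894 of the tested genes, and 173 of them (1.59%) hold such a box. Among genes called higher the box occurred in 8 of 99 windows (8.08%), those of Acta1, Actc1, Cnn2, Dmd, Fbxl22, Lgr4, Myl9 and 4833412C05Rik. Among genes called lower it occurred in 1 of 61 (1.64%), that of Rap1gap2. The windows of Acta2 and Tpm1, also called members of the MRTF/SRF list, were searched and held no CArG box. The motif CATTCC, recognised by TEAD factors, was searched the same way and was in 14.8% of all windows, 19.2% of those of genes called higher and 23.0% of those of genes called lower. A match describes the letters only, and no binding was measured here.

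Acta1, Acta2 and Actc1, which encode muscle actins, rose. Acta1, skeletal alpha-actin, had 307, 154 and 315 CPM in WT and 7857, 5859 and 5758 CPM in CAP2-/- (log2 fold change 4.65, SE 0.35, adjusted p = 0.00349). The smooth muscle form, Acta2, had 163, 68.4 and 117 CPM and 1969.7, 3082 and 3154 CPM (log2 fold change 4.55, SE 0.43, adjusted p = 0.0174). Actc1, the alpha-actin of heart muscle, rose from 13408, 12242 and 13017 CPM to 24107, 30380 and 28702 CPM, a 2.15-fold change (log2 fold change 1.11, SE 0.11, adjusted p = 2.41e-05). None of the 3 had overlapping groups, and the lowest CAP2-/- library of Acta1 was far above the highest WT library. Acta2 was no longer called when WT replicate 3 or CAP2-/- replicate 2 or 3 was left out (adjusted p 0.0729 to 0.103). Actg2, the gamma-actin of smooth muscle, had 2.20, 1.75 and 3.16 CPM in WT and 4.62, 4.86 and 6.11 CPM in CAP2-/-, without overlap but not called in edgeR (log2 fold change 1.12, SE 0.30, adjusted p = 0.0905); DESeq2 gave an adjusted p of 0.0457. The coding sequences of the actins are closely alike, so reads could have been split among them by the authors' counting, which the sources used here do not describe. Myl9, a regulatory light chain of smooth muscle and non-muscle myosin, stood at 25.3, 26.0 and 38.9 CPM in WT and 606, 735 and 761 CPM in CAP2-/-, a 23.3-fold rise (log2 fold change 4.54, SE 0.18, adjusted p = 4.81e-09). Among actin-binding proteins, Tpm1, a tropomyosin of the thin filament, rose 1.6-fold from a WT mean of 13034 CPM (log2 fold change 0.68, SE 0.10, adjusted p = 0.000855). Dstn, or destrin, a cofilin relative that severs filaments, had 127, 109.7 and 123 CPM in WT and 255, 291 and 221 CPM in CAP2-/- (log2 fold change 1.09, SE 0.13, adjusted p = 0.000155). Destrin and Cap2 were the called members among the 45 tested genes of actin filament turnover in edgeR (4.44%, beside 1.35% of all genes). DESeq2 called 4.

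Pdlim3 (3.72-fold), Pdlim7 (2.58-fold) and Pdlim5 (1.76-fold), of the PDZ-LIM family, which ties kinases and alpha-actinin to the filament ends, rose, while Obsl1, an obscurin-like cytoskeletal adaptor named after its values were seen, fell (log2 fold change -0.64, SE 0.13, adjusted p = 0.0142). Obsl1 was no longer called when WT replicate 3 or CAP2-/- replicate 2 or 3 was left out (adjusted p 0.0563 to 0.0996). Pdlim3 stood at 11.1, 17.2 and 13.1 CPM in WT and 60.4, 46.6 and 45.3 CPM in CAP2-/- (log2 fold change 1.89, SE 0.18, adjusted p = 1.54e-05), with no overlap. Csrp2, a LIM protein of smooth muscle, rose 3.14-fold (log2 fold change 1.65, SE 0.21, adjusted p = 0.000514), and Dmd, dystrophin, which anchors the cytoskeleton to the membrane, rose 1.72-fold (log2 fold change 0.78, SE 0.13, adjusted p = 0.00283). Fbxl22, an F-box protein of the cardiac Z-disc, rose 1.93-fold (log2 fold change 0.95, SE 0.12, adjusted p = 0.000346). Cnn2, a calponin, rose 1.54-fold, with 53.6, 44.0 and 50.9 CPM in WT and 69.2, 78.3 and 82.0 CPM in CAP2-/-; it was no longer called when WT replicate 2 or 3 or CAP2-/- replicate 2 or 3 was left out (adjusted p 0.0614 to 0.107). Tubb3, a beta-tubulin best known from neurons, was the only called gene among 37 microtubule proteins and motors (2.7%, beside 1.35% of all genes). It had 0.901, 0.737 and 0.468 CPM in WT and 2.81, 4.22 and 4.07 CPM in CAP2-/- (log2 fold change 2.37, SE 0.41, adjusted p = 0.00439). Myl1, a myosin light chain of fast skeletal muscle, rose 2.73-fold and Casq1, the calsequestrin of skeletal muscle, 7.63-fold. Casq1 had 4.22, 1.20 and 3.45 CPM in WT and 23.7, 19.2 and 28.9 CPM in CAP2-/-, with every CAP2-/- library above every WT library.

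Myot and Myocd were called lower. Myot, or myotilin, a Z-disc protein that crosslinks actin, dropped from 94.5, 139.5 and 119.7 CPM to 51.9, 40.3 and 39.9 CPM, 2.68-fold lower (log2 fold change -1.42, SE 0.15, adjusted p = 0.000118). Myocd, or myocardin, the muscle-restricted partner of SRF, had 55.2, 44.9 and 55.6 CPM in WT and 29.7, 33.5 and 29.8 CPM in CAP2-/- (log2 fold change -0.74, SE 0.13, adjusted p = 0.00627); it was no longer called when CAP2-/- replicate 3 was left out (adjusted p = 0.0586). It was the only called member of 45 cardiac and muscle transcription factors (2.22%, beside 1.35% of all genes). Srf itself stood at 173, 180.5 and 163 CPM and 188, 198 and 204 CPM (log2 fold change 0.19, SE 0.11, adjusted p = 0.602), without overlap, and was named after its values were seen.

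Ankrd1, a titin-binding ankyrin repeat protein of the stressed heart that is also a target of YAP and TEAD, was among the 10 called genes with the highest mean CPM. It stood at 1022, 914 and 872 CPM in WT and 4089, 6160.1 and 4743 CPM in CAP2-/-, a 5.34-fold rise (log2 fold change 2.42, SE 0.14, adjusted p = 1.18e-07). Of the YAP/TEAD list, 3 of its 33 tested members were called higher (9.09%, beside 1.35% of all genes), Ankrd1, Tgfb2 and Ccn2. The list median was 0.03. Ccn2, connective tissue growth factor, rose 3.83-fold, and was no longer called when CAP2-/- replicate 1 or 3 was left out (adjusted p 0.0508 to 0.0606).

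**Figure D3:**
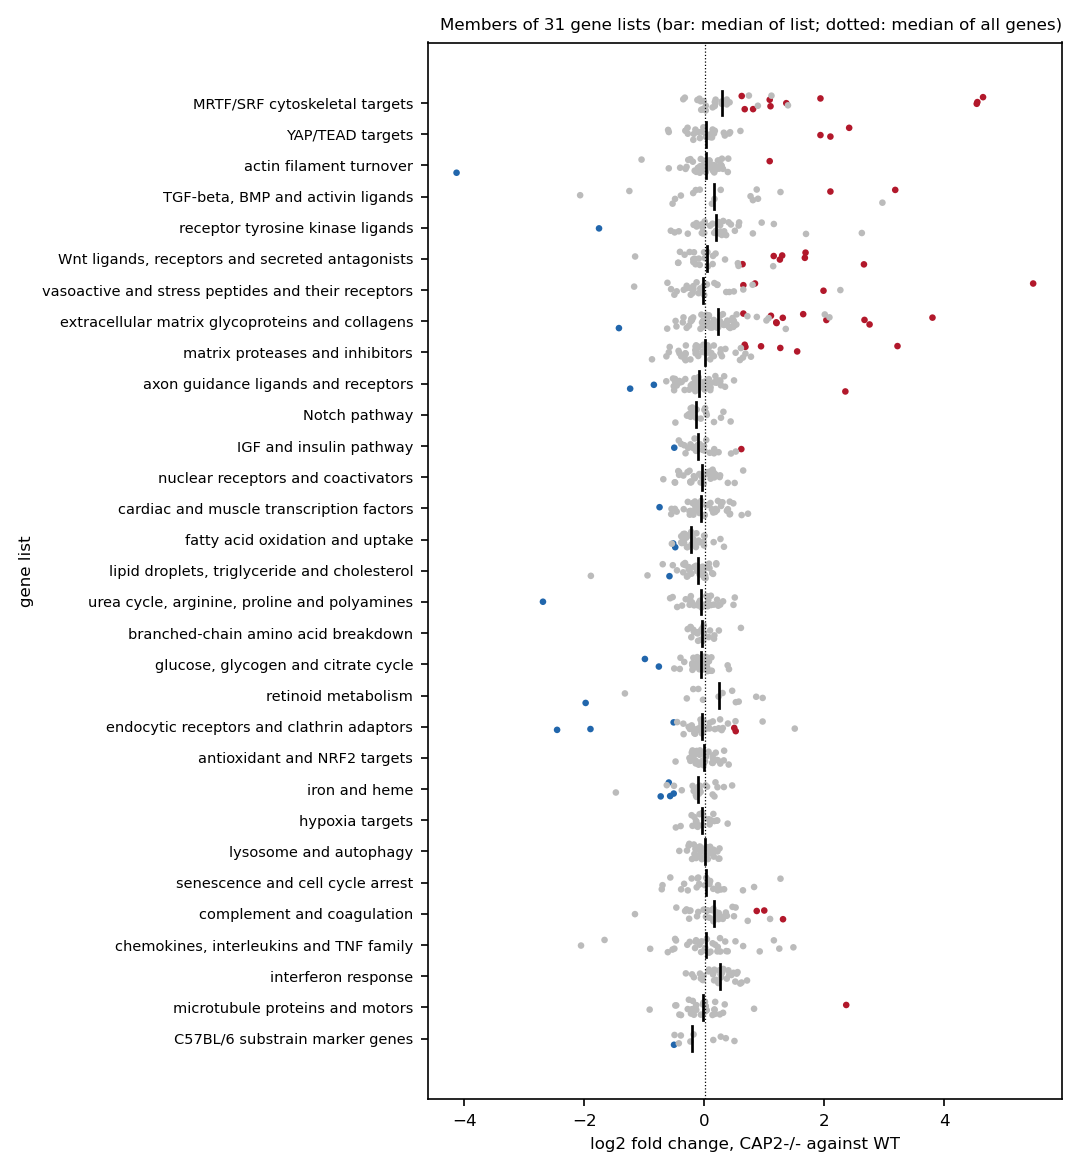
Log2 fold change in CAP2-/- against WT (horizontal axis) of each tested member of 31 gene lists (rows); red points are called higher, blue called lower and grey not called, the short bar is the list median and the dotted line the median of all genes. The MRTF/SRF, Wnt and matrix lists hold many red points, and most of the fatty acid oxidation list lies left of the dotted line.

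Wnt pathway genes were among the rises. Of 31 tested Wnt ligands, receptors and antagonists, 7 were called higher (22.6%) and 0 lower. The share called over all genes was 1.35%, and the list median was 0.05. Of the 7, 4 are secreted proteins that bind Wnt ligands directly, Sfrp1, Sfrp2, Frzb and Wif1, and Dkk3 belongs to the Dickkopf family. Sfrp2 had 1.77, 1.75 and 1.93 CPM in WT and 10.2, 13.4 and 11.0 CPM in CAP2-/-, a 6.33-fold rise (log2 fold change 2.66, SE 0.24, adjusted p = 1.06e-05). Sfrp1 had 26.7, 28.1 and 22.2 CPM and 56.0, 67.1 and 48.7 CPM (log2 fold change 1.16, SE 0.15, adjusted p = 0.000346). Neither gene had overlapping groups. Frzb rose 2.46-fold, from 8.07, 8.48 and 7.38 CPM to 17.2, 21.4 and 20.2 CPM, Dkk3 2.4-fold (log2 fold change 1.26, SE 0.19, adjusted p = 0.00191) and Wif1 3.22-fold. Among receptors, Fzd2 rose 3.2-fold, from 5.80, 3.32 and 3.51 CPM to 11.4, 15.8 and 14.1 CPM (log2 fold change 1.68, SE 0.24, adjusted p = 0.00117), and Lgr4, a receptor for R-spondins, 1.56-fold. Dact3, an intracellular inhibitor of the pathway that was not on the list, rose 2.37-fold (log2 fold change 1.24, SE 0.19, adjusted p = 0.00191). Wif1 was no longer called when WT replicate 1 or 3 or CAP2-/- replicate 3 was left out (adjusted p 0.0915 to 0.113), and Lgr4 when WT replicate 1, 2 or 3 or CAP2-/- replicate 2 or 3 was left out (adjusted p 0.0525 to 0.273). Gm11627, a predicted gene whose annotated end lies 24935 bases before Fzd2 on the other strand, rose as well, from 0.216, 0.0921 and 0.644 CPM to 8.70, 10.1 and 8.90 CPM; it was named here after its values were seen.

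Growth factors of the TGF-beta family showed 2 called rises among 19 tested ligands (10.5%, beside 1.35% of all genes). Tgfb2, an activator of fibroblasts, had 9.66, 8.57 and 8.90 CPM in WT and 30.9, 40.5 and 45.5 CPM in CAP2-/-, a 4.3-fold rise (log2 fold change 2.10, SE 0.17, adjusted p = 2.42e-06). Gdf6, a BMP-type ligand, rose 9.09-fold from a very low base, 0.252, 0.184 and 0.293 CPM against 2.99, 1.29 and 2.73 CPM (log2 fold change 3.18, SE 0.54, adjusted p = 0.00398). Bmp10, an atrial BMP, gave log2 2.97 (SE 0.72) and missed the threshold at an adjusted p of 0.0612. Egf, the epidermal growth factor gene, was the only called member of 38 receptor tyrosine kinase ligands (2.63%, beside 1.35% of all genes). It fell from 13.3, 15.9 and 10.5 CPM to 4.53, 2.503 and 4.71 CPM (log2 fold change -1.75, SE 0.26, adjusted p = 0.00135). All 3 CAP2-/- libraries lay below all WT libraries. Ccn5, a relative of Ccn2, rose 7.09-fold and was no longer called when WT replicate 1, 2 or 3 was left out (adjusted p 0.0999 to 0.196).

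Nppa, the gene of atrial natriuretic peptide, had the largest rise of any gene at 1 CPM or more with an established name. It stood at 116, 96.2 and 73.7 CPM in WT and 3809, 4549.8 and 4437 CPM in CAP2-/-, a 44.7-fold change (log2 fold change 5.48, SE 0.18, adjusted p = 3.07e-10). Gm13054 lies on the opposite strand over Nppa and rose 48.9-fold; since the strand setting of the counting is not given in the sources used here, reads of the pair cannot be told apart. The vasoactive list held 4 called rises among 33 tested genes (12.1%, beside 1.35% of all genes), with a median of -0.02. Tac1, which encodes substance P, had 4.18, 3.78 and 3.34 CPM in WT and 13.9, 15.1 and 16.1 CPM in CAP2-/- (log2 fold change 1.99, SE 0.20, adjusted p = 3.99e-05). Ednra, the endothelin receptor of muscle cells, rose 1.8-fold, with 66.8, 63.9 and 66.1 CPM against 119, 110.3 and 125 CPM (log2 fold change 0.85, SE 0.11, adjusted p = 0.000514). The called gene 4933431K23Rik lies on the opposite strand over Ednra and rose 2.87-fold, and reads of this pair cannot be told apart either. Ace, the angiotensin-converting enzyme, rose 1.57-fold and was no longer called when WT replicate 3 or CAP2-/- replicate 3 was left out (adjusted p 0.0782 to 0.116). Nppb, the B-type natriuretic peptide gene, ranged from 43.0 to 127.5 CPM in WT and from 403.3 to 443.3 CPM in CAP2-/-; its groups did not overlap, yet its adjusted p was 0.120.

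**Figure D4:**
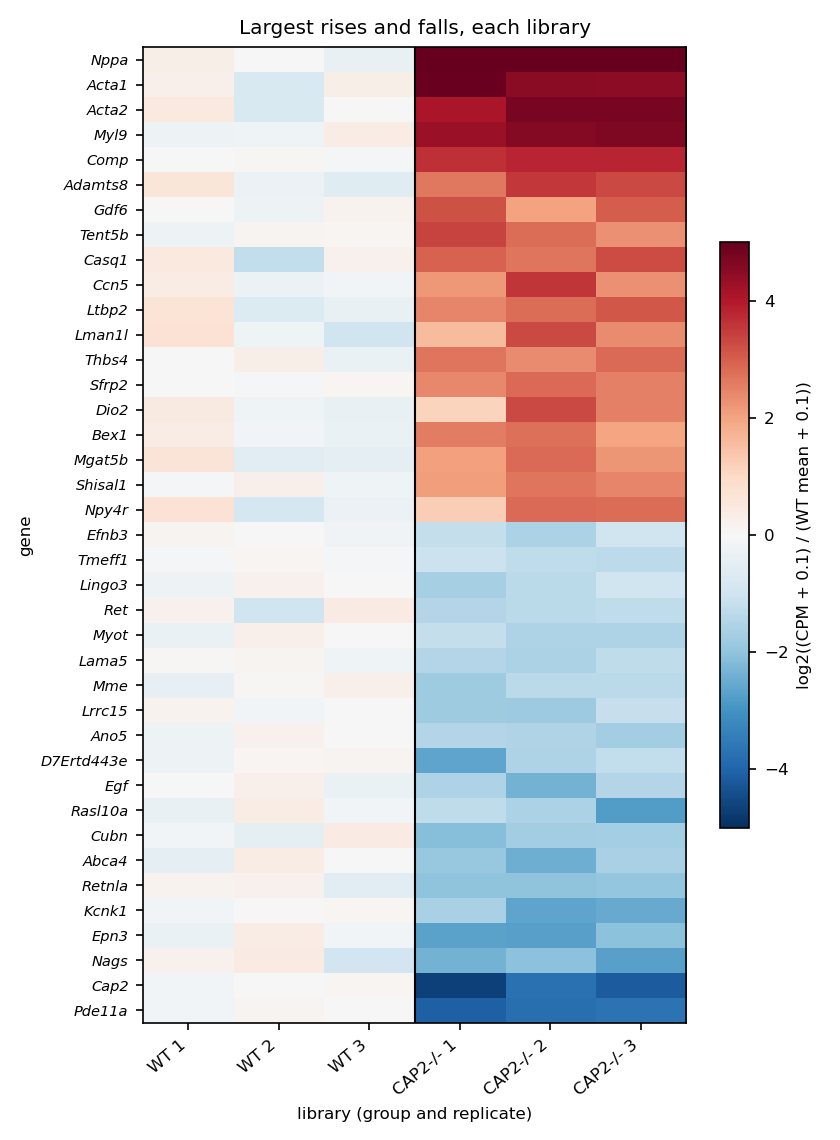
Level of 19 of the genes with the 20 largest rises and of those with the 20 largest falls (rows) in each of the 6 libraries (columns), as log2 of CPM relative to the WT mean, with 0.1 CPM added; red is higher and blue lower. The 3 WT columns are pale and the 3 CAP2-/- columns are strongly coloured in nearly every row.

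A share of the extracellular matrix genes rose. Of 77 tested glycoproteins and collagens, 10 were called higher and 1 lower (14.3%, beside 1.35% of all genes). The median log2 fold change was 0.23, and 57 of 77 lay above 0. The called rises were mainly in glycoproteins and proteoglycans that organise fibres, and the collagens among them were Col8a1 and Col12a1. Comp, cartilage oligomeric matrix protein, which links collagen fibrils, had 3.96, 4.05 and 3.63 CPM in WT and 50.4, 56.4 and 56.0 CPM in CAP2-/- (log2 fold change 3.80, SE 0.15, adjusted p = 3.27e-10). Thbs4, a thrombospondin of the same family, had 4.72, 5.90 and 3.75 CPM and 30.8, 25.03 and 34.6 CPM, a 6.37-fold rise (log2 fold change 2.67, SE 0.20, adjusted p = 1.06e-06). Ltbp2, a microfibril protein, rose 6.76-fold (log2 fold change 2.76, SE 0.34, adjusted p = 0.00393). The replicates of Comp were close to one another in both groups, so this difference was larger than the spread between libraries. The microfibril protein Mfap5 rose 2.16-fold (log2 fold change 1.11, SE 0.16, adjusted p = 0.000943), the proteoglycan Bgn (biglycan) 2.3-fold (log2 fold change 1.20, SE 0.18, adjusted p = 0.00415) and Col8a1 2.48-fold (log2 fold change 1.31, SE 0.16, adjusted p = 0.000219). Col12a1 rose 4.1-fold and the large proteoglycan Vcan 2.31-fold. Col12a1 was no longer called when WT replicate 3 or CAP2-/- replicate 3 was left out (adjusted p 0.0647 to 0.13), and Vcan when WT replicate 3 or CAP2-/- replicate 3 was left out (adjusted p 0.0623 to 0.0633). Postn, or periostin, a protein of activated fibroblasts, ranged from 38.6 to 53.4 CPM in WT and from 117.2 to 279.8 CPM in CAP2-/- without being called (adjusted p = 0.0646). General fibroblast markers summed to 2979 to 3360 CPM in WT and 3280 to 3521 CPM in CAP2-/-. Without Gsn, which made up 1622 to 2041 CPM of the sum, the other 15 summed to 1299 to 1357 CPM in WT and 1571 to 1585 CPM in CAP2-/-, with no overlap; Gsn was left out after the values were seen. Of the 16 markers 2 were called higher, Mfap5 and Wif1, 12 lay above 0 and the median log2 fold change was 0.23; their part in the matrix result was not tested.

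Lama5, the laminin alpha-5 chain of vascular and epithelial basement membranes, was the one matrix gene called lower. It had 222, 234 and 184 CPM in WT and 78.2, 72.2 and 88.8 CPM in CAP2-/-, 2.68-fold lower (log2 fold change -1.42, SE 0.13, adjusted p = 1.04e-05). Its groups were well separated. A pair of membrane proteins also fell, Lrrc15, known from fibroblasts, 2.93-fold (log2 fold change -1.55, SE 0.19, adjusted p = 0.000282) and Mme, the peptide-degrading enzyme neprilysin, 2.77-fold (log2 fold change -1.47, SE 0.23, adjusted p = 0.00239).

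Matrix proteases, their inhibitors and relatives of both gave 6 called rises and 0 called falls among 48 genes (12.5%, beside 1.35% of all genes). Adamts8, a secreted metalloproteinase, had 1.66, 0.829 and 0.644 CPM in WT and 6.98, 13.1 and 11.1 CPM in CAP2-/- (log2 fold change 3.22, SE 0.35, adjusted p = 0.000136), and its relative Adamtsl2, which lacks the catalytic part, rose 2.93-fold (log2 fold change 1.55, SE 0.17, adjusted p = 0.000202). Of the inhibitors, Timp2 rose 1.61-fold (log2 fold change 0.69, SE 0.11, adjusted p = 0.00341), Timp1 2.41-fold and Serpine2 1.93-fold (log2 fold change 0.95, SE 0.15, adjusted p = 0.00314). Serpinf1, of the serpin family, rose 1.6-fold. Timp1 was no longer called when WT replicate 2 or 3 or CAP2-/- replicate 2 or 3 was left out (adjusted p 0.114 to 0.216), and Serpinf1 when WT replicate 1 or 3 or CAP2-/- replicate 2 or 3 was left out (adjusted p 0.0665 to 0.131). By symbol, 4 of 33 serpins were called higher (12.1%, beside 1.35% of all genes). Of these, Serpina3n, an acute-phase protease inhibitor, had 41.0, 51.9 and 29.1 CPM in WT and 124, 125 and 106 CPM in CAP2-/- (log2 fold change 1.55, SE 0.18, adjusted p = 0.000391). Itgbl1, a secreted integrin-like protein, was the only called gene among 28 of the integrin family by symbol (3.57%, beside 1.35% of all genes). It was 2.86-fold higher (log2 fold change 1.52, SE 0.21, adjusted p = 0.000585).

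Of 50 guidance molecules first known from the nervous system, 1 was called higher and 2 lower (6.0%, beside 1.35% of all genes). Rtn4r, the Nogo receptor, had 9.05, 9.67 and 11.4 CPM in WT and 52.5, 44.4 and 56.5 CPM in CAP2-/-, 5.11-fold higher (log2 fold change 2.35, SE 0.15, adjusted p = 1.63e-07). Lingo3, from the family of Nogo co-receptors, was not on this list and went the other way. It fell 2.48-fold (log2 fold change -1.31, SE 0.20, adjusted p = 0.00187). Efnb3, an ephrin ligand, dropped from 119.5, 110.5 and 97.5 CPM to 47.7, 36.5 and 55.1 CPM (log2 fold change -1.23, SE 0.15, adjusted p = 0.000219), and the receptor gene Ephb3 fell 1.79-fold. Each of these 4 genes had separate groups, but Ephb3 was no longer called when WT replicate 1, 2 or 3 or CAP2-/- replicate 2 or 3 was left out (adjusted p 0.0691 to 0.107).

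Genes of calcium, cyclic nucleotide and ion handling included some of the steepest falls. Pde11a, a phosphodiesterase that breaks down cyclic AMP and cyclic GMP, had 5.62, 6.82 and 6.15 CPM in WT and 0.272, 0.358 and 0.382 CPM in CAP2-/-, 17.7-fold lower (log2 fold change -4.14, SE 0.37, adjusted p = 9.75e-06). Pde3a, the main phosphodiesterase of heart muscle contraction, fell 1.59-fold and was no longer called when WT replicate 1 or 3 or CAP2-/- replicate 2 or 3 was left out (adjusted p 0.0712 to 0.127). These were the 2 called genes among 21 phosphodiesterases (9.52%, beside 1.35% of all genes). Adcy5, the cardiac adenylyl cyclase that makes cyclic AMP, rose 1.71-fold (log2 fold change 0.77, SE 0.13, adjusted p = 0.00329). The sodium-calcium exchanger gene Slc8a1 had 201, 162 and 181 CPM in WT and 311, 272 and 273 CPM in CAP2-/- (log2 fold change 0.65, SE 0.12, adjusted p = 0.00694). Its family, the solute carriers by symbol, had 2 called higher and 3 lower among 244 (2.05%, beside 1.35% of all genes). Of 46 potassium channel genes 1 rose and 1 fell (4.35%, beside 1.35% of all genes). Kcnip2, a subunit of the transient outward current, rose 1.78-fold (log2 fold change 0.83, SE 0.12, adjusted p = 0.000707), and the leak channel gene Kcnk1 dropped from 4.47, 4.98 and 5.27 CPM to 1.54, 0.715 and 0.763 CPM (log2 fold change -2.31, SE 0.37, adjusted p = 0.00252). Ano5, an anoctamin of muscle membranes, fell 2.99-fold (log2 fold change -1.58, SE 0.21, adjusted p = 0.00043).

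The called genes of the fat metabolism lists fell. Of 32 tested genes of fatty acid oxidation and uptake, 0 were called higher and 2 lower (6.25%, beside 0.509% of all genes called lower). Of the 32, 4 lay above 0 and the median was -0.22. The groups did not overlap for 18 in the lower direction, where 8.0% of all genes did so. Acaa2, which cuts acetyl-CoA from the chain in mitochondria, had 1229.6, 1201 and 1335 CPM in WT and 888, 831 and 914 CPM in CAP2-/- (log2 fold change -0.52, SE 0.11, adjusted p = 0.0193). Cpt2, which returns fatty acids to CoA inside the mitochondrion, had 424, 410.2 and 415 CPM and 292, 293 and 309 CPM (log2 fold change -0.48, SE 0.10, adjusted p = 0.026). The differences were small but the WT and CAP2-/- libraries were well apart. Acaa2 was no longer called when WT replicate 3 or CAP2-/- replicate 2 or 3 was left out (adjusted p 0.0805 to 0.131), and Cpt2 when WT replicate 1, 2 or 3 or CAP2-/- replicate 2 or 3 was left out (adjusted p 0.0689 to 0.138). Lpin1, a phosphatidate phosphatase and co-activator of fat oxidation, fell 1.49-fold. It was no longer called when WT replicate 3 or CAP2-/- replicate 2 was left out (adjusted p 0.0841 to 0.123). Among 40 genes of lipid stores and cholesterol Lpin1 was the only call (2.5%, beside 1.35% of all genes).

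The called genes of the glucose, glycogen and citrate cycle list fell. Ogdhl, a subunit form of the 2-oxoglutarate dehydrogenase, had 292, 355 and 335 CPM in WT and 197, 153 and 146 CPM in CAP2-/- (log2 fold change -0.99, SE 0.13, adjusted p = 0.000514), and Pfkfb2, the heart form of the enzyme that sets fructose 2,6-bisphosphate, fell 1.69-fold (log2 fold change -0.76, SE 0.13, adjusted p = 0.00624). They were the 2 calls among its 47 tested genes (4.26%, beside 1.35% of all genes), and the next 2 genes were not on it. Fbp2, the muscle fructose bisphosphatase, dropped from 40.9, 43.5 and 41.0 CPM to 20.7, 19.2 and 19.5 CPM (log2 fold change -1.08, SE 0.13, adjusted p = 0.000219). Gpd1, which links glycolysis to glycerol, fell 1.73-fold (log2 fold change -0.79, SE 0.12, adjusted p = 0.00191). In each of them every CAP2-/- library was below every WT library. Prkag2, a regulatory subunit of the energy sensor AMPK, went up 1.91-fold (log2 fold change 0.93, SE 0.12, adjusted p = 0.000462). Akt1, a kinase of insulin signalling, had 291, 297 and 269 CPM in WT and 197, 194 and 216 CPM in CAP2-/-, and lost its call when any one of the 6 libraries was left out (adjusted p from 0.0589 to 0.159).

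Iron and heme genes had 4 called falls and 0 rises among 30 (13.3%, beside 1.35% of all genes). Cpox and Alad, enzymes of heme synthesis, fell 1.65-fold and 1.5-fold, Hfe2 (hemojuvelin) 1.42-fold and Cp (ceruloplasmin) 1.48-fold. Cpox, with the smallest p of these, had 60.0, 46.2 and 57.6 CPM in WT and 35.2, 34.1 and 30.2 CPM in CAP2-/- (log2 fold change -0.72, SE 0.14, adjusted p = 0.00999). The erythroid markers did not separate the groups, as CAP2-/- replicate 1 had the highest sum and CAP2-/- replicate 3 the lowest. All 4 calls depended on single libraries: Cpox was no longer called when WT replicate 1 or 3 or CAP2-/- replicate 3 was left out (adjusted p 0.0544 to 0.0845), Alad when WT replicate 1 or 2 or CAP2-/- replicate 2 or 3 was left out (adjusted p 0.0598 to 0.128), Hfe2 when WT replicate 2 or 3 or CAP2-/- replicate 2 or 3 was left out (adjusted p 0.0578 to 0.133) and Cp when WT replicate 2 or 3 or CAP2-/- replicate 1 or 3 was left out (adjusted p 0.0523 to 0.155).

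Endocytosis genes gave 2 rises and 3 falls among 43 (11.6%, beside 1.35% of all genes). Apart from Epn3, which was called without each library in turn, these calls depended on single libraries: 1 gene was called without WT replicate 3, and 2 without CAP2-/- replicate 2 or replicate 3. Epn3, an epsin that bends the membrane of clathrin-coated pits, had 21.7, 35.9 and 24.6 CPM in WT and 4.17, 4.15 and 6.49 CPM in CAP2-/-, 5.47-fold lower (log2 fold change -2.45, SE 0.24, adjusted p = 3.21e-05). Cubn, or cubilin, a scavenger receptor of absorptive epithelia, fell 3.72-fold and was no longer called when WT replicate 3 was left out (adjusted p = 0.0602). Abca4, a transporter of retinoids known from the retina, was the only call among 13 genes of retinoid metabolism (7.69%, beside 1.35% of all genes). It fell from 4.72, 8.66 and 6.50 CPM to 1.72, 1.14 and 2.10 CPM (log2 fold change -1.98, SE 0.33, adjusted p = 0.00391). Retnla, a secreted product of alternatively activated macrophages, had 5.26, 5.44 and 3.22 CPM in WT and 1.09, 1.07 and 1.14 CPM in CAP2-/- (log2 fold change -2.06, SE 0.35, adjusted p = 0.00417). The other 15 macrophage markers gave no call, and their list summed to 394.3 to 469.0 CPM in WT and 394.9 to 496.0 CPM in CAP2-/-. Rpl3l, a ribosomal protein that replaces Rpl3 in mature muscle, was the only called member of 77 cytosolic ribosomal proteins. That share, 1.3%, is near the 1.35% of all genes. Rpl3l had 237, 252 and 257 CPM in WT and 154, 146 and 166.5 CPM in CAP2-/- (log2 fold change -0.68, SE 0.11, adjusted p = 0.00312). Rpl3 was higher without being called (log2 0.53, SE 0.15, adjusted p = 0.104).

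Complement and coagulation had 3 called rises among 36 (8.33%, beside 1.35% of all genes). Among them were C4b (2.0-fold), a component of the classical complement pathway, and C7 (2.49-fold), a part of the membrane attack complex. C4b had 55.6, 72.7 and 47.8 CPM in WT and 131, 124 and 96.4 CPM in CAP2-/- (log2 fold change 1.00, SE 0.16, adjusted p = 0.00398), with no overlap. C7 was no longer called when WT replicate 1 or CAP2-/- replicate 2 or 3 was left out (adjusted p 0.0908 to 0.129). Chemokines, interleukins and TNF family genes gave 0 calls among 36 in edgeR and limma-voom and 3 in DESeq2, with 10 at an unadjusted p under 0.05. Interferon response genes gave 0 among 34 with all 3 tools and 6 at an unadjusted p under 0.05, with a median of 0.26.

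Other groups without a call in edgeR were the Notch pathway (21 tested), nuclear receptors and their co-activators (37), branched-chain amino acid breakdown (25), antioxidant genes (33), hypoxia targets (23), and lysosome and autophagy genes (37). Neither DESeq2 nor limma-voom called a member of these 6, and their counts at an unadjusted p under 0.05 ran from 1 to 7. Senescence genes had 0 calls among 26 in edgeR and limma-voom, 3 in DESeq2 and 6 at an unadjusted p under 0.05. Mitochondrial ribosomal proteins (77 tested), proteasome subunits (49), complex I subunits (46) and ATP synthase subunits (17) gave 0 calls with all 3 tools, and 3, 3, 3 and 0 members had an unadjusted p under 0.05. Their medians lay between -0.01 and 0.03, close to that of all genes.

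Cell type markers were summed in each library, and for lists in which 1 or a few genes made up much of the sum it was also taken without them, a choice made after the values were seen. Of all genes, 7.6% had every CAP2-/- library above every WT library and 8.0% the reverse, and 1.35% were called. Activated fibroblast markers summed to 289.9 to 385.8 CPM in WT and 2286 to 3772 CPM in CAP2-/-, and without Acta2 to 172.2 to 220.9 CPM and 391.9 to 692.6 CPM. Of the 11 tested, 4 were called higher, Acta2, Comp, Thbs4 and Col8a1, 10 lay above 0 with a median log2 fold change of 1.36, and 7 had all CAP2-/- libraries above WT. Cthrc1 was low throughout, at or below 0.0930 CPM in WT and from 0.261 to 0.5 CPM in CAP2-/-. Smooth muscle markers summed to 8989 to 10170 CPM in WT and 10950 to 13580 CPM in CAP2-/-, most of it Pln and Des, which heart muscle also expresses. Without these the sums were 648.9 to 737.5 CPM and 3015 to 4428 CPM, and without Acta2 and Myl9 as well, 511.6 to 553.7 CPM and 526.8 to 564.3 CPM. Those 2 were the called ones of the 12; 7 lay above 0 (median 0.19), 6 had all CAP2-/- libraries above WT and 0 below. The atrial sum went from 211.4 to 257.9 CPM in WT to between 3798 and 4678 CPM in CAP2-/-, and without Nppa it was 135.6 to 160.7 CPM and 133.4 to 138.1 CPM. Of its 10 tested members 2 were called higher, Nppa and Dkk3, 7 lay above 0 (median 0.46), 5 had all CAP2-/- libraries above WT and 2 all below; Sln was at or below 0.186 CPM in every library. The skeletal muscle sum was 3477 to 4888 CPM against 10330 to 13310 CPM, and without Acta1 3166 to 4732 CPM against 4474 to 5752 CPM. Most of that remainder was Ckm, at 3113 to 4691 CPM against 4355 to 5655 CPM, so it says little about the other members. Of its 12 tested members 3 were called higher, Acta1, Casq1 and Myl1, and 11 lay above 0 (median 0.42). All CAP2-/- libraries were above WT for 4 of them and below for 0. Tnnc2 was at or below 0.143 CPM in all. The cartilage sum was 14.8 to 16.9 CPM against 64.1 to 80.5 CPM, and without Comp 10.8 to 12.8 CPM against 14.5 to 25.3 CPM; Col2a1, Acan and Matn3 stayed under 0.5 CPM. Pericyte markers summed lower in CAP2-/- (1106 to 1278 CPM against 1409 to 1513 CPM), as did lymphatic ones (131.3 to 145.2 CPM against 166.8 to 182.4 CPM), with 0 of 10 and 0 of 7 called in edgeR, 1 and 1 in DESeq2, and 4 and 3 at an unadjusted p under 0.05. The part of cell composition in the matrix, actin and receptor results was not tested.

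**Figure D5:**
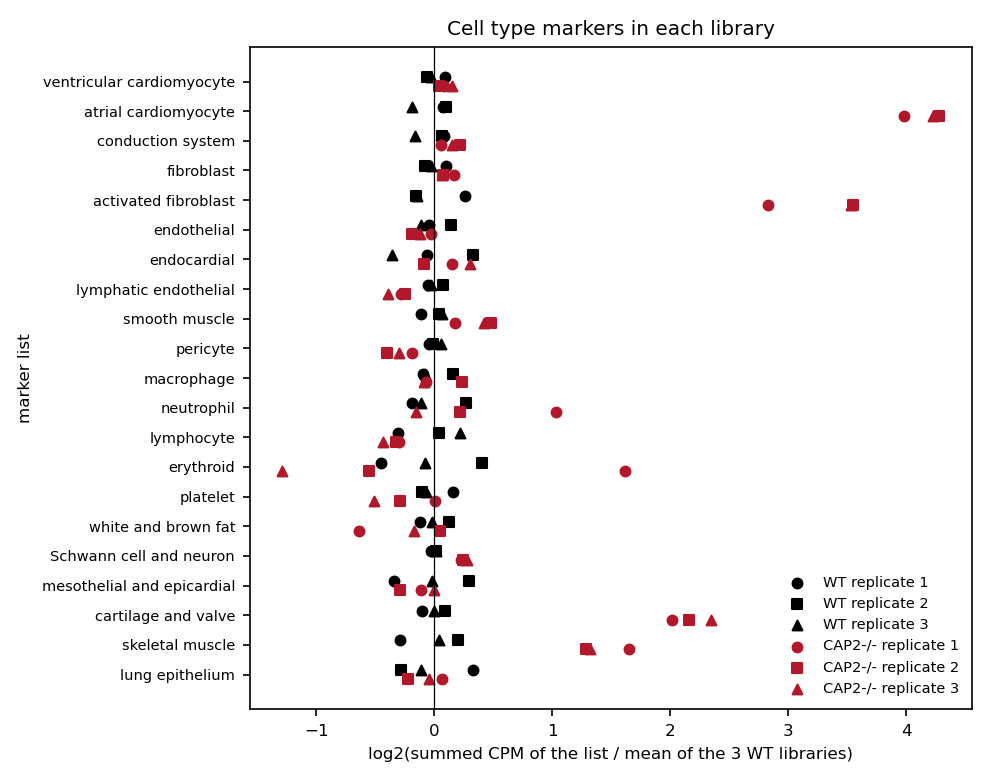
Summed level of 21 marker lists (rows) in each library, as log2 of the ratio to the mean of the 3 WT libraries (horizontal axis); black symbols are WT and red ones CAP2-/-, and the symbol shape gives the replicate. The red symbols of the atrial, activated fibroblast, cartilage and skeletal muscle lists lie far to the right, and the erythroid list spreads the 3 CAP2-/- libraries in both directions.

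Some genes varied more between libraries of one group than between the groups. The haemoglobin gene Hbb-bs stood at 1072, 1872 and 1368 CPM in WT and 6108, 1153 and 633 CPM in CAP2-/-. Pdf, a mitochondrial deformylase, was at 0.324, 17.0 and 17.3 CPM and 17.5, 15.4 and 11.96 CPM, and Myo1h, an unconventional myosin, at 1.15, 17.5 and 14.1 CPM and 14.9, 17.2 and 19.7 CPM. Inmt, a methyltransferase, had 11.9, 44.4 and 17.0 CPM in WT and 31.7, 2.002 and 5.597 CPM in CAP2-/-. CAP2-/- replicate 1 was the high library for Hbb-bs, and WT replicate 1 was the low one for Pdf and Myo1h. None of these 4 genes was called. Of 10 genes known to differ between C57BL/6 substrains, 1 was called, Cyfip2, at 1.42-fold lower in CAP2-/-, and it lost the call without any one of the 6 libraries (adjusted p from 0.0629 to 0.138). When CAP2-/- replicate 2 was left out, 2 members of this list were called. Wdfy1, also on the list and named after its values were seen, was not called and varied widely within both groups. It had 6.92, 6.45 and 31.4 CPM in WT and 23.3, 8.01 and 23.2 CPM in CAP2-/-.

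The same genes could be followed in the second experiment, in which 13-week-old Loxp/Loxp mice with Myh6-driven Cre (Cre+, 3 females and 1 male) were set against Loxp/Loxp, Cre- controls (3 females and 2 males). A further Cre+ sample was not analysed here. Cre+ and control mice there differ in the Cre transgene itself as well as in recombination, the library kit was another one, and the authors' normalized read counts were compared without a test. Of the 137 genes called higher at 86 weeks, 117 had a mean of at least 10 normalized counts there. For 60 of them (51.3%) every Cre+ library was above every control, where 3.82% of all 11806 genes in both tables were; these 60 are 13.3% of the 451 genes of that kind. Of the 83 genes called lower, 75 could be followed and 37 (49.3%) were below every control, beside 4.79% of all genes, and they are 6.54% of the 566 of that kind. Cap2 itself, whose fall is a check of the labels, is counted in the 75 and the 37, with means of 390.6 normalized counts in the controls and 65 in Cre+. Within females alone the counts were 81 of 117 and 49 of 75, with backgrounds of 9.39% and 11.4%. The experiments share no samples, but age, genotype and library preparation differ together and cannot be told apart.

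Examples of genes described above follow. Tgfb2 had 11, 29, 43, 48 and 66 normalized counts in the controls and 178, 271, 235 and 229 in Cre+. Thbs4 had 29, 19, 70, 21 and 60 in the controls and 223, 703, 602 and 376 in Cre+. Ogdhl stood at 980, 462, 443, 964 and 908 in the controls and at 91, 87, 50 and 93 in Cre+. In these 3 genes no Cre+ library reached the range of the controls. Rtn4r, by contrast, had overlapping groups there, with 17 to 61 in the controls and 10 to 150 in Cre+, as did Lama5, with 461 to 3087 and 275 to 822. Armc2, an armadillo repeat protein, was the only called gene whose groups separated in the opposite direction over all samples there (2 did within females). It rose in the aged CAP2-/- hearts, from 51.6, 46.7 and 51.0 CPM to 128, 94.3 and 91.6 CPM (log2 fold change 1.07, SE 0.14, adjusted p = 0.000407), and had 252, 136, 139, 299 and 141 normalized counts in the young controls against 85, 61, 29 and 71 in Cre+. It was called without each of the 6 libraries in turn.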

How the data were processed

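Whole-heart RNA in 3 WT and 3 CAP2-/- libraries was analysed from the authors' deposited table of estimated counts per gene, which are not whole numbers and were rounded. The submitters' processing notes name mm10, STAR 2.6.0c and DESeq without a role. Annotation, counter and strand setting: not given in the sources used here. The authors' normalized read counts of the 13-week experiment, whole-number scores scaled by a method not given in the sources used here, were set side by side without a test. The authors' deposited fold changes (log2), mean signal and p-values were not used.

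Of 38087 gene rows, 36308 matched GENCODE M21 identifiers. Genes passing edgeR's filterByExpr were fitted with TMM factors and the robust quasi-likelihood test (edgeR 4.0.16, R 4.3.3) on the 6 libraries with genotype as the only term, and p-values were Benjamini-Hochberg adjusted over all 16297. The script was tested on simulated data. Alternatives were RLE factors, other filters, no robust shrinkage, the replicate number as a block, DESeq2 1.42.0, limma-voom (limma 3.58.1) and leaving out each library. Promoter windows are from RefSeq. Libraries held 10750175 to 27440478 counts, which limits low genes most.

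The members and the 32 gene lists, 21 marker lists and 20 families were chosen with earlier results of these data known. Named genes are Cap2, Cap1 and their neighbours within 2 Mb, the 20 largest rises and falls, the 10 most abundant called genes, up to 6 called and 2 other members of a list by smallest p, the 10 genes of at least 10 CPM with the largest spread within groups, and further called genes as examples. Results for some genes and 1 list are not reported here.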

Additional observations from a re-analysis of the deposited data

How the results depend on the processing

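The 220 calls, 37.7% of them lower, became 394 in DESeq2 and 512 without a filter on low counts. Leaving out one library gave 126 to 275 calls, of which 27% to 36% were lower: without CAP2-/- replicate 3, 34 genes were called lower in place of 83, without CAP2-/- replicate 2, 39, without WT replicate 3, 44, and without WT replicate 1, 53. The cause was not tested. RLE factors, a mean of at least 1 CPM, no robust shrinkage and limma-voom gave 205 to 222 calls. Cap2 was called under all 13 alternatives. Of the 92 called genes named with values besides Cap2, 66 were called under every alternative that gave them a value and 0 reversed. Hbb-bs, Pdf and Rbm24, which were not called, changed sign without one library: Hbb-bs ran from -0.69 (without CAP2-/- replicate 1) to 1.34, Pdf from -0.20 (without WT replicate 1) to 0.91 and Rbm24 from -0.0065 (without WT replicate 1) to 0.12 on the log2 scale. Counts of called members moved by over 1.5 times under at least one alternative in 24 of 31 lists, and in 16 when the unfiltered fit and single libraries were set aside.

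No pairing by replicate number was seen: same-numbered deviations from the group means had correlations of -0.169, -0.121 and -0.021. With 3 libraries a group, such values cannot show that the samples were unpaired. With the replicate number as a block, 115 genes were called higher and 51 lower (30.7% of the calls), 151 of these genes were also called without the block, and 79 of the 92 named ones were among them. Depth limits genes of a few CPM most, and with 3 libraries a group, small differences in variable genes were not detectable.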
